A study of Arabidopsis thaliana with 4 samples.

Results

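Late embryogenesis abundant (LEA) proteins, with the dehydrins among them, form a family of 53 genes in this account, chosen by locus identifier from the 33187 identifiers of the deposited expression table. All 53 were in the table, and 37 of them reached 1 TPM in at least 2 of the 4 libraries. TPM is each gene's length-corrected share of a library's transcripts, scaled to the same total in every library. RNA came from whole developing seeds of Arabidopsis thaliana at 7 days post anthesis, with embryos labelled torpedo to linear. It was taken from the erf4 mutant, a single T-DNA insertion line, SALK_073394 (erf4_2 in the sample titles), and from the wild type, with 2 libraries each. No label says that replicates were grown separately. The p-values therefore reflect the scatter of these libraries alone, part or all of which may be technical.

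LEA proteins are small, very hydrophilic and mostly unstructured proteins that accumulate as seeds acquire desiccation tolerance, and they are known for protecting membranes and enzymes from water loss. Many of their genes are activated by abscisic acid through bZIP factors at ABRE sites and, in seeds, by the B3 factors ABI3 and FUS3, while others respond to cold or drought in vegetative tissue. Dehydrins are the LEA class with lysine-rich K-segments, and several of them are expressed throughout the plant. ERF4 belongs to the ethylene response factors and acts as a transcriptional repressor.

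The ERF4 transcript (AT3G15210) had 34.6 and 41.3 TPM in the libraries labelled erf4, against 38.0 and 33.0 TPM in wild type, so its level does not check the genotype labels. Library depth is unknown because TPM keeps no read numbers, and 20295 to 20630 genes reached 1 TPM in each library. Markers of seed coat were present in every library, with sums over 7 genes of 1104 and 757 TPM in erf4 against 568 and 431 TPM in wild type, and 4 of the 7 lay above the wild-type range, where 21.5% of all genes tested did. Those of endosperm summed to 840 and 702 TPM over 7 genes in erf4, against 1582 and 1237 TPM in wild type. EPR1 (AT2G27380) set that sum, with 779 and 633 TPM in erf4 against 1530 and 1189 TPM in wild type, while 4 of the 6 measured endosperm markers (PHE1, FWA, FIS2 and ZOU) lay above the wild-type range. Embryo markers reached 312 and 397 TPM over 6 genes in erf4, against 433 and 485 TPM in wild type, with L1L and FUS3 below the wild-type range and LEC1 and WOX8 above it. Silique wall and leaf markers, some of which seeds also express, summed to 614 and 667 TPM over 10 genes in erf4 and to 530 and 486 TPM in wild type, and of the 9 measured 6 were higher and 2 lower in both erf4 libraries than in either wild-type library, where 12.2% of all genes were lower in that way. The trichome regulator GL1 (AT3G27920) was listed at 0 in every library. The part of these tissue markers in the results below was not tested, and in whole seeds fewer cells of a type and less RNA per cell cannot be told apart.

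The summed level of the family overlapped between genotypes. Over its 53 genes it came to 2922 and 2419.5 TPM in erf4 against 2916 and 2444 TPM in wild type. A pair of broadly expressed dehydrins, ERD14 and HIRD11, held 55.3% and 67.2% of the family's TPM in erf4 and 47.0% and 56.5% in wild type. Beneath this level the members divided. Of the 37 tested, 26 had a negative and 11 a positive log2 fold change. Among the 26, AT2G23110 and AT3G53040 had to be negative because they passed the 1 TPM filter through the wild type alone. The median was -0.70 on the log2(TPM + 1) scale, where the median over all 20804 genes tested was 0.03. The member at the median was AT3G53040.

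No member passed the test over all genes. With limma and Benjamini-Hochberg adjustment, 0 of 37 members were called at an adjusted p under 0.05, beside 0 (0%) of all genes, and the smallest adjusted p among members was 0.407. At an unadjusted p under 0.05, 14 members stood out, all of them lower in erf4, where 6.98% of all genes did. The same 14 members were those with both erf4 libraries below both wild-type libraries, 37.8% of the members tested against 12.2% of all genes. Only 4 members (10.8%) had both erf4 libraries above both wild-type libraries, against 21.5% of all genes. Of the 14, AT2G23110 and AT3G53040 passed the filter through the wild type alone and so had to lie lower in erf4. The shares depended on the erf4 libraries. Without erf4 replicate 2, 19 of 37 members (51.4%) lay below the wild-type range, near the 46.9% of all genes, and 11 (29.7%) above it, near the 29% of all genes. Without erf4 replicate 1, 23 members (62.2%) lay below, against 16.8% of all genes, and 6 (16.2%) above, against 55.2% of all genes. Without wild-type replicate 1, 15 of 35 members (42.9%) lay below and 9 (25.7%) above, against 25.9% and 38.6% of all genes, and without wild-type replicate 2 the members' counts were 19 of 35 (54.3%) and 4 (11.4%), against 22.7% and 31.5%. The median log2 fold change of the members stayed negative in each of these fits. It was -0.44 without wild-type replicate 2, -0.40 on the log2(TPM + 5) scale and -0.14 with no filter on low values.

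**Figure D1:**
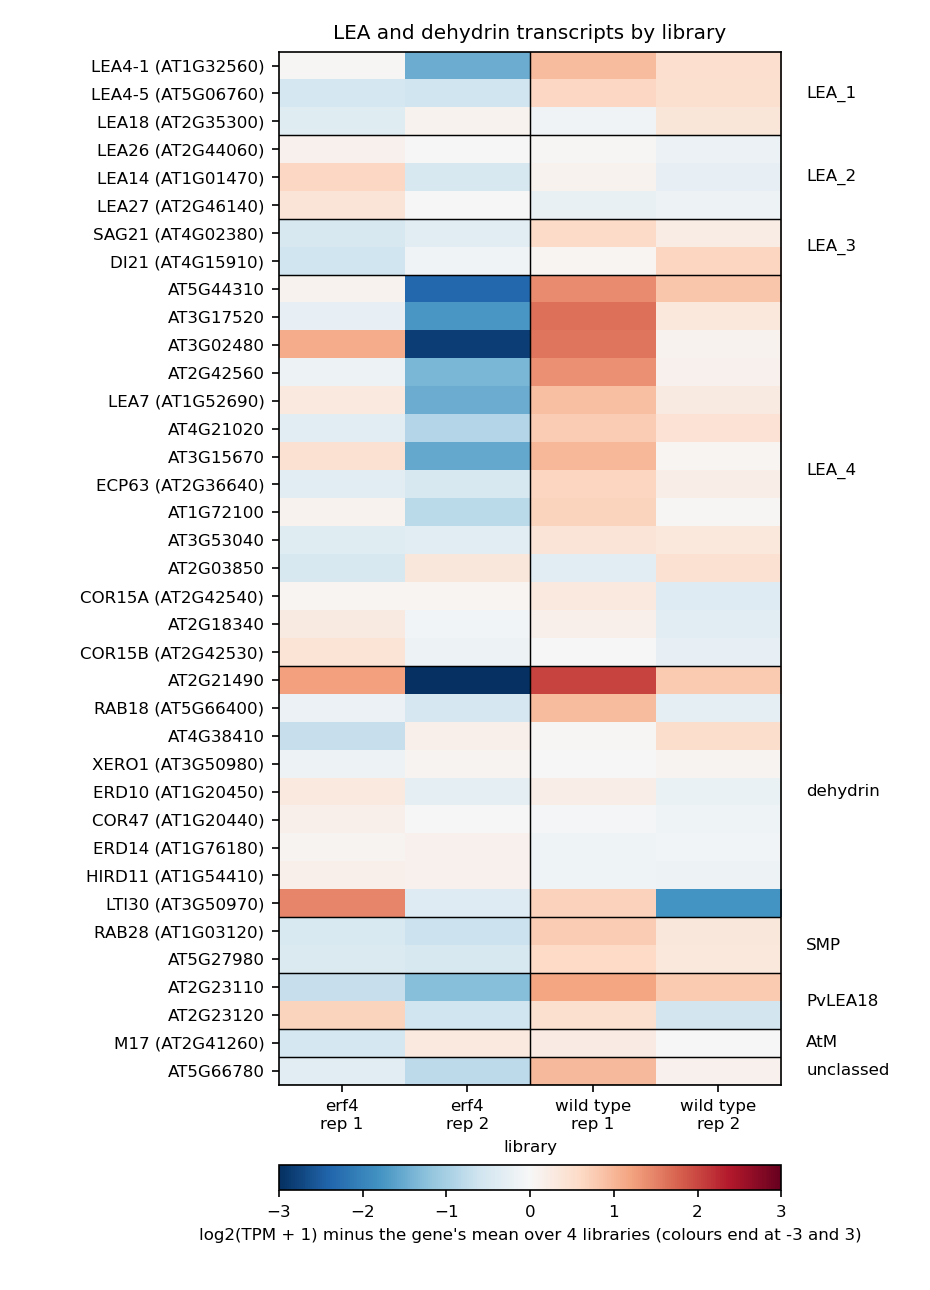
Heat map of the 37 tested LEA and dehydrin genes (rows, grouped by class) in the 4 libraries (columns, erf4 left of wild type), coloured by log2(TPM + 1) minus the gene's mean over the libraries. Most rows of the LEA_1, LEA_3, LEA_4 and SMP classes are blue in at least 1 erf4 library, and erf4 replicate 2 holds the darkest cells, while the abundant dehydrins ERD14, HIRD11 and COR47 are pale throughout.

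The LEA_1 class held 3 genes, all with a negative log2 fold change. LEA4-5 (AT5G06760), whose protein is known to protect plants during water deficit, had 8.17 and 7.66 TPM in erf4 against 19.4 and 17.5 TPM in wild type. Both erf4 libraries lay at less than any wild-type value, and replicates differed little within either genotype. This corresponds to a log2 fold change of -1.12 (SE 0.17, 95% confidence interval -1.57 to -0.68, limma adjusted p = 0.407), with means of 7.92 ± 0.361 TPM in erf4 and 18.4 ± 1.32 TPM in wild type (SD, n = 2). Its close relative LEA4-1 (AT1G32560) had 19.4 and 6.17 TPM in erf4, against 37.4 and 27.3 TPM in wild type. The third member, LEA18 (AT2G35300), had 19.8 and 28.0 TPM in erf4 and 23.8 and 33.5 TPM in wild type, so that its ranges overlapped.

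Seed maturation protein (SMP) genes, named for proteins of the late seed, were mostly listed at 0 at this stage. RAB28 (AT1G03120), whose protein lies in the nucleus of embryo cells, had 12.4 and 10.7 TPM in erf4, against 29.9 and 22.1 TPM in wild type (log2 fold change -1.10, SE 0.21, limma adjusted p = 0.461). AT5G27980 of the same class had 1.74 and 1.62 TPM in erf4, against 4.57 and 3.6 TPM in wild type. In both genes the erf4 libraries were close to each other and below the wild type. The other SMP genes, AT3G22490, ECP31 (AT3G22500), AT5G53260 and AT5G53270, were listed at 0 in every library.

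LEA_4 was the largest class, with 18 genes. Its members summed to 184 and 56.3 TPM in erf4, against 311 and 170 TPM in wild type, so the sums overlapped. Of the 14 tested, 11 had a negative log2 fold change, 6 (42.9%) had both erf4 values under the wild-type range and 0 had both over it, where 12.2% and 21.5% of all genes did. One of the 6, AT3G53040, had to lie lower because it passed the filter through the wild type alone. AT4G21020 had 14.5 and 9.50 TPM in erf4 against 31.7 and 24.9 TPM in wild type (log2 fold change -1.19, SE 0.25, limma adjusted p = 0.461). ECP63 (AT2G36640), an embryonic cell protein gene, had 12.1 and 10.9 TPM in erf4 against 24.9 and 18.1 TPM in wild type. In both genes the genotypes did not overlap, and the erf4 replicates of ECP63 lay closer together than those of AT4G21020.

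Other LEA_4 genes were lower in erf4 but uneven between its replicates. AT5G44310 had 5.77 and 0.24 TPM in erf4 against 16.0 and 10.3 TPM in wild type. AT3G17520 had 5.56 and 1.31 TPM in erf4, against 23.6 and 8.74 TPM in wild type. AT2G42560 stood at 2.14 and 0.35 TPM in erf4 and at 8.06 and 2.80 TPM in wild type. In all 3 genes replicate 2 was the lower library of each genotype, and no erf4 value reached the wild-type range. AT3G53040 had 0.49 and 0.53 TPM in erf4, against 1.5 and 1.4 TPM in wild type.

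In the most abundant LEA_4 genes the genotypes overlapped. LEA7 (AT1G52690) had 52.7 and 14.8 TPM in erf4 against 81.8 and 52.5 TPM in wild type. AT3G02480 had 71.0 and 3.75 TPM in erf4, against 99.9 and 35.1 TPM in wild type. The log2 fold change of AT3G02480 was -1.71, and turned to 0.25 without erf4 replicate 2. AT3G15670, at 3.27 and 0.07 TPM in erf4 and 5.16 and 2.23 TPM in wild type, and AT1G72100, at 2.00 and 0.57 TPM in erf4 and 3.38 and 1.85 TPM in wild type, had the same shape. Each of these 4 genes was lowest in erf4 replicate 2, and erf4 replicate 1 lay within the wild-type values.

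The cold-regulated LEA_4 genes overlapped between genotypes. COR15A (AT2G42540), which encodes a chloroplast protein that stabilises membranes during freezing, had 8.37 and 8.35 TPM in erf4, against 9.96 and 5.87 TPM in wild type. Its neighbour COR15B (AT2G42530) had 2.85 and 1.62 TPM in erf4 and 1.85 and 1.44 TPM in wild type. These adjacent genes are similar in sequence, so reads may be shared between them and their single values are uncertain. AT2G18340 and AT2G03850 had between 0.95 and 2.70 TPM in all libraries, with overlapping ranges.

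**Figure D2:**
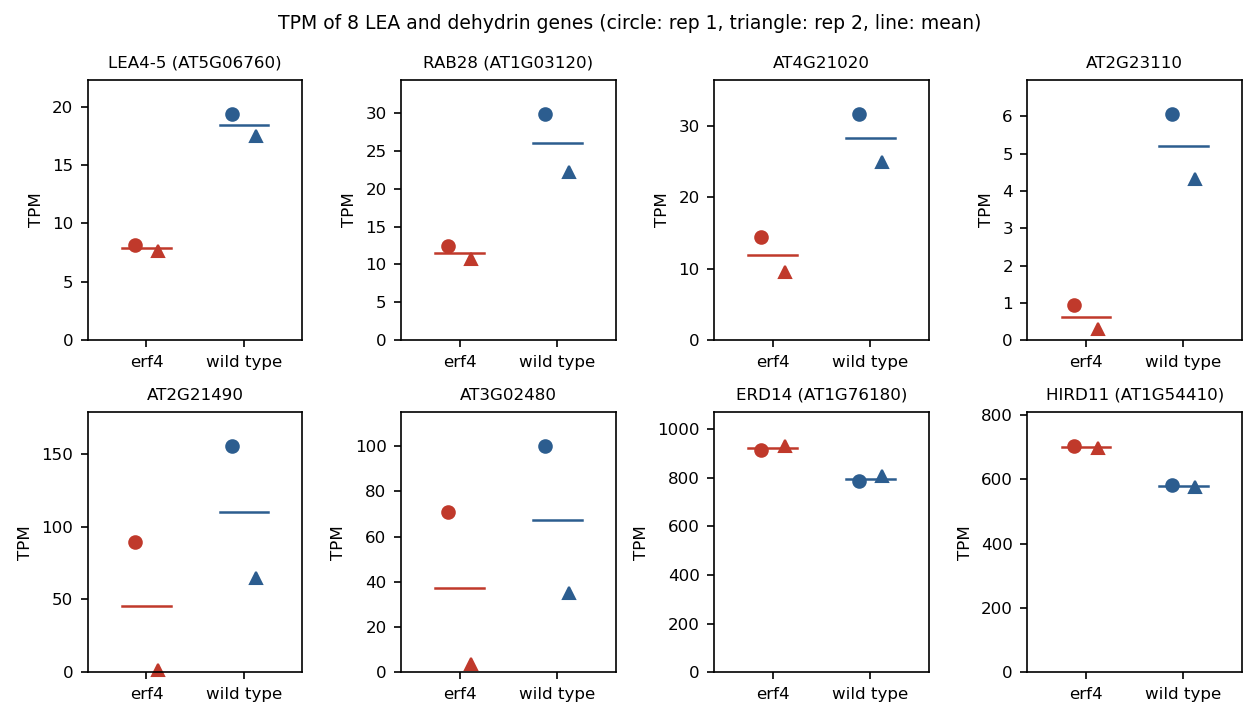
TPM of 8 members in the libraries labelled erf4 (left, red) and in wild type (right, blue), with replicate 1 as a circle, replicate 2 as a triangle and the mean of 2 libraries as a line; each panel has its own axis from 0. LEA4-5, RAB28, AT4G21020 and AT2G23110 lie lower in both erf4 libraries. For AT2G23110 this was fixed by the filter, which it passed through the wild type alone. AT2G21490 and AT3G02480 are lowest in erf4 replicate 2, at 1.36 and 3.75 TPM, and ERD14 and HIRD11 are slightly higher in both erf4 libraries.

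LEA_3 proteins are small, and several are known to enter mitochondria. SAG21 (AT4G02380), a mitochondrial LEA protein gene induced by senescence and oxidative stress, had 38.2 and 43.0 TPM in erf4, against 80.7 and 63.0 TPM in wild type (log2 fold change -0.80, SE 0.18, limma adjusted p = 0.461). DI21 (AT4G15910), named as drought-induced, had 27.1 and 38.7 TPM in erf4 against 43.4 and 66.1 TPM in wild type. In both genes all erf4 values lay below all wild-type values, and unlike most LEA_4 members neither gene was lowest in erf4 replicate 2. AT3G53770 was listed at 0 throughout, and LEA3 (AT1G02820) did not exceed 1.35 TPM.

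LEA_2 proteins are folded and less hydrophilic than the rest of the family, and their 3 genes all had positive log2 fold changes. LEA27 (AT2G46140) had 29.8 and 22.6 TPM in erf4, against 19.4 and 20.4 TPM in wild type, without overlap. LEA26 (AT2G44060) had 144 and 131 TPM in erf4 and 136 and 117 TPM in wild type, and LEA14 (AT1G01470) had 61.4 and 28.3 TPM in erf4 and 43.2 and 33.2 TPM in wild type. The last 2 genes had overlapping ranges, and the log2 fold change of LEA14 turned to -0.41 without erf4 replicate 1.

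Dehydrins made up most of the family's transcripts and had the widest range of log2 fold changes, though none was called. ERD14 (AT1G76180), an acidic dehydrin with chaperone activity, had 912 and 929 TPM in erf4 against 786 and 806 TPM in wild type. HIRD11 (AT1G54410), a histidine-rich dehydrin that binds metals, had 704 and 697 TPM in erf4, against 584 and 576 TPM in wild type. Both genes were higher in both erf4 libraries by a small margin, with replicates close together. Their log2 fold changes were 0.21 (SE 0.17, 95% confidence interval -0.22 to 0.64, limma adjusted p = 0.992) for ERD14 and 0.27 (SE 0.16, 95% confidence interval -0.13 to 0.68, limma adjusted p = 0.893) for HIRD11. COR47 (AT1G20440), a cold-regulated acidic dehydrin, had 106 and 95.6 TPM in erf4 against 91.0 and 85.9 TPM in wild type. Separation of ERD14, COR47 and LEA27 from the wild type depended on the scaling. After median-of-ratios rescaling HIRD11 and ERD14 remained above the wild-type range, and after quantile normalisation HIRD11 did, while the log2 fold changes of all 4 genes stayed positive.

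The remaining dehydrins overlapped between genotypes. ERD10 (AT1G20450), adjacent to COR47, had 151 and 100 TPM in erf4 and 142 and 108 TPM in wild type. XERO1 (AT3G50980) had 37.8 and 44.7 TPM in erf4, against 41.7 and 44.3 TPM in wild type. Its neighbour LTI30 (AT3G50970), a cold-induced dehydrin that binds membranes, had 48.1 and 12.6 TPM in erf4, against 27.8 and 4.10 TPM in wild type. LTI30 was higher in replicate 1 than in replicate 2 of each genotype, and its log2 fold change of 1.09 had a 95% confidence interval of -1.38 to 3.56. RAB18 (AT5G66400), the dehydrin most used as an abscisic acid marker, had 19.1 and 14.9 TPM in erf4, against 42.8 and 17.5 TPM in wild type. AT4G38410 had 10.0 and 18.8 TPM in erf4 and 17.2 and 24.7 TPM in wild type. AT2G21490, annotated as dehydrin LEA, had 89.1 and 1.36 TPM in erf4 against 155 and 64.9 TPM in wild type. This gene had the lowest log2 fold change of the family, -2.80, with a 95% confidence interval of -7.05 to 1.45, and the value was -0.17 without erf4 replicate 2.

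The PvLEA18 class, named after a bean LEA protein, holds an adjacent pair of genes. AT2G23110 had 0.93 and 0.29 TPM in erf4, against 6.06 and 4.32 TPM in wild type, a log2 fold change of -1.96. It passed the filter through the wild type alone, so its lower level in erf4 was fixed by the filter and is given as a description. Its neighbour AT2G23120, the third most abundant member, had 289 and 119 TPM in erf4 and 253 and 122 TPM in wild type, so the replicates differed and the genotypes did not separate. M17 (AT2G41260) of the AtM class had 3.49 and 6.90 TPM in erf4 and 6.64 and 5.37 TPM in wild type. AT5G66780, which belongs to no class used here, had 4.46 and 2.90 TPM in erf4, against 12.2 and 6.36 TPM in wild type, again without overlap.

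Genes that mark the last phase of seed drying were at or near 0. The LEA_5 genes EM6 (AT2G40170), needed for normal water loss during maturation, and EM1 (AT3G51810) did not exceed 0.59 and 0.48 TPM in any library. Altogether 6 of the 16 untested members were listed at 0 in all libraries, which in addition to the SMP genes and AT3G53770 included AT4G13230. The others had highest values of 0.33 TPM for AT2G03740, 0.73 TPM for UNE15 (AT4G13560), 0.08 TPM for AT4G36600, 0.16 TPM for the dehydrin AT4G39130, 0.23 TPM for AT2G33690, 0.14 TPM for M10 (AT2G41280) and 0.13 TPM for AT5G60530. No difference between genotypes could be assessed for these genes at such levels.

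**Figure D3:**
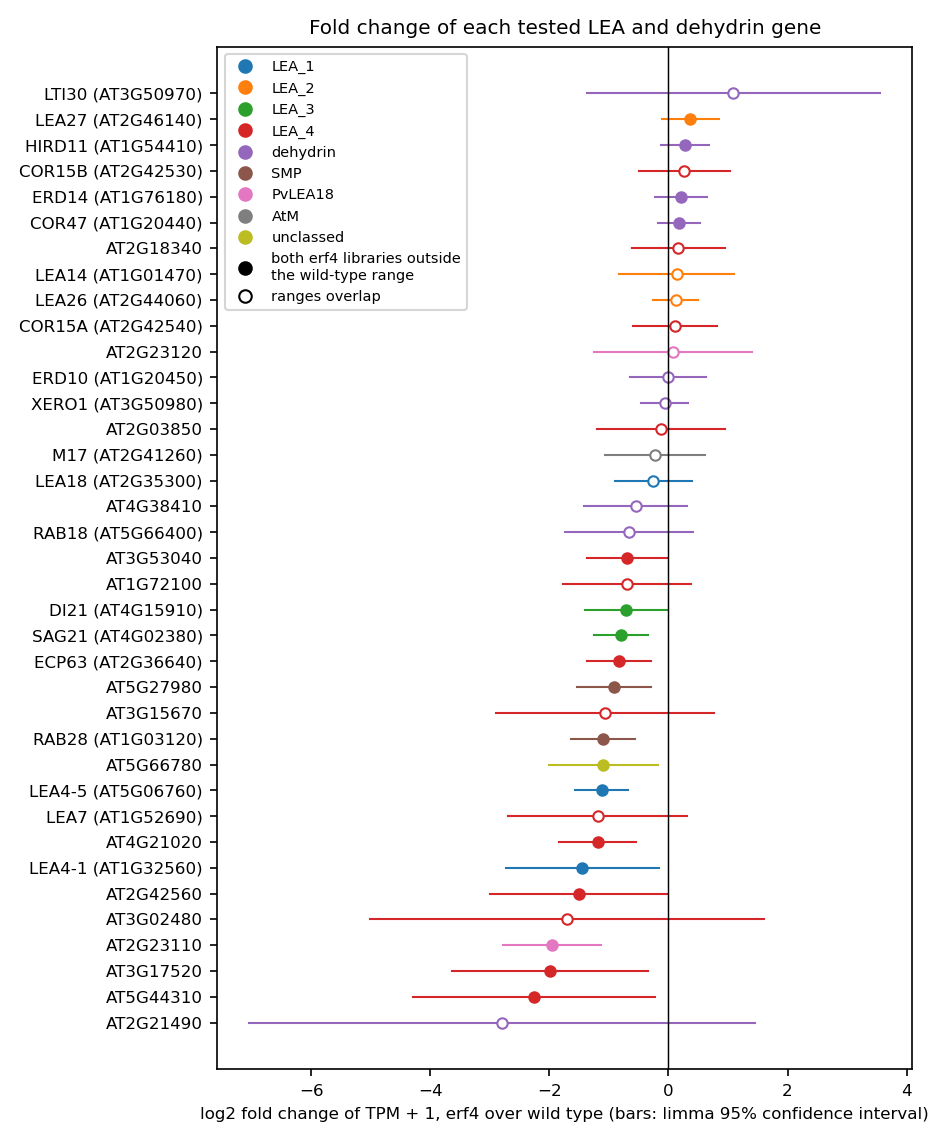
Log2 fold change of TPM + 1, erf4 over wild type, for the 37 tested members, ordered by size and coloured by class, with limma 95% confidence intervals as bars; filled points have both erf4 libraries outside the wild-type range. The 14 filled points left of 0 include members of every class shown but LEA_2, the dehydrins and AtM, and the 4 filled points right of 0 are LEA27, HIRD11, ERD14 and COR47. AT2G23110 and AT3G53040 passed the filter through the wild type alone and so had to lie left of 0.

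The direction of the members differed with their abundance, given here as a description. Of the 10 members with a mean of at least 50 TPM over the 4 libraries, 5 had a positive log2 fold change, 1 (10.0%) lay below the wild-type range and 3 above it, with a median log2 fold change of 0.04. Of all genes tested at that level, 12.5% lay below and 25.5% above. Of the 13 members between 10 and 50 TPM, 10 were negative, 6 (46.2%) lay below and 1 above, with a median of -0.67, against 10.6% below and 20.1% above of all genes at that level. The 13 members between 1 and 10 TPM had 10 negative values, 6 (46.2%) below and 0 above, with a median of -0.92, against 14% below and 21.1% above of all genes at that level. Of these 6, AT2G23110 had to lie lower because it passed the filter through the wild type alone. All genes had medians of 0.03 in each of the 3 bands.

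In each genotype, most members were lower in replicate 2 than in replicate 1. The labels do not tie same-numbered libraries of erf4 and wild type together, so the numbering may be arbitrary. All members were read in the same 4 libraries, so their count does not measure how often the direction recurs. Replicate 2 was lower than replicate 1 in 28 of 37 members (75.7%) in erf4 and in 30 of 37 (81.1%) in wild type, against 29.2% and 51.9% of all genes tested. In 27 members (73.0%) replicate 2 was lower in both genotypes, against 21.0% of all genes. The lowest of the 4 values fell in erf4 replicate 2 for 20 members (54.1%), against 8.98% of all genes. Relative to the wild-type mean, the median member stood at -0.49 in erf4 replicate 1 and at -0.68 in erf4 replicate 2. All genes had medians of -0.07 and 0.14 on the same log2(TPM + 1) scale. The members here include AT2G23110 and AT3G53040, which had to lie lower because they passed the filter through the wild type alone.

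Storage protein genes, the other large product of the maturing embryo, differed between the same libraries, but over a wider range. Their 13 genes summed to 34129 and 1122 TPM in erf4, against 30607 and 16074 TPM in wild type, and their median stood at 0.64 in erf4 replicate 1 and at -4.35 in erf4 replicate 2 relative to the wild-type mean. In erf4 replicate 1 the median storage gene was above the wild-type mean while the median LEA member was below it. In erf4 replicate 2 both lists were below. The storage genes ran from -6.35 for CRU2 to -0.45 for AT4G36700 in erf4 replicate 2, and the lowest members there were AT2G21490 at -5.43, AT3G02480 at -3.67 and AT5G44310 at -3.49. LEA4-5, at -1.08 in replicate 1 and -1.16 in replicate 2, RAB28, AT5G27980, ECP63 and SAG21 had like values in both erf4 libraries. So did the storage gene AT4G36700, at -0.55 and -0.45. AT3G53040 also had like values in both, but it had to lie lower because it passed the filter through the wild type alone. The part of seed stage or of this library in the differences was not tested.

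**Figure D4:**
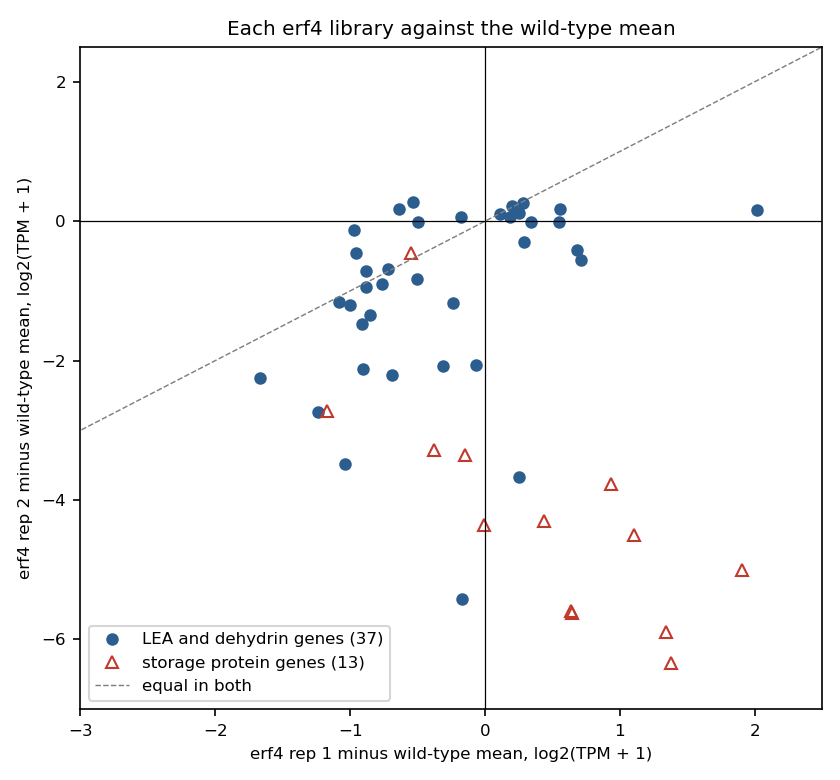
Each point is a gene, placed by its log2(TPM + 1) in erf4 replicate 1 (horizontal) and erf4 replicate 2 (vertical) minus the wild-type mean; circles are the 37 tested LEA and dehydrin genes, triangles the 13 storage protein genes, and the dashed line marks equal values in both (the axes differ in scale). Many circles lie near the line at about -1, whereas 12 of the 13 triangles lie below it, 8 of them under -4 in replicate 2.

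Known regulators of LEA genes had lower values in part. The list does not separate activators from repressors, and the part of these regulators in the members' levels was not tested. Of 22 measured regulators among the 25 listed, limma called 0, 5 had an unadjusted p under 0.05, 16 had a negative log2 fold change, 8 (36.4%) had both erf4 values under the wild-type range and 1 (4.55%) had both over it. Of all genes, 6.98% had such a p, 12.2% lay below and 21.5% above. EEL (AT2G41070), a bZIP factor that binds the promoter of EM1, had 62.4 and 87.3 TPM in erf4, against 139 and 161 TPM in wild type (log2 fold change -1.01, SE 0.21, limma adjusted p = 0.461). ABI3 (AT3G24650), the B3 factor needed for seed LEA expression and desiccation tolerance, had 20.4 and 29.9 TPM in erf4, against 37.1 and 35.3 TPM in wild type. In both genes, erf4 replicate 1 was the lowest library, as it was for 81.8% of the measured regulators and 42.9% of all genes tested. Erf4 replicate 2 was the lowest for 54.1% of the members tested and 8.98% of all genes. Log2 fold changes were -0.83 for the bZIP factor BZIP67 (AT3G44460), -0.89 for FUS3 (AT3G26790), -0.66 for L1L (AT5G47670) and 0.57 for LEC1 (AT1G21970), which encode related NF-Y subunits of the embryo, each without overlap between genotypes. Among the 13 maturation regulators 6 lay below the wild-type range, and among the 9 measured abscisic acid and cold regulators 2 did. CBF1 (AT4G25490), CBF2 (AT4G25470) and CBF3 (AT4G25480), the cold regulators of COR15A, did not exceed 1.61, 1.06 and 0.26 TPM.

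Upstream sequences of 3 members are shown because LEA4-5 had the smallest p among members lower in erf4, and LEA27 and HIRD11 had the smallest among those higher in both erf4 libraries. Each is the 250 bases before the annotated gene start in TAIR10.1 (RefSeq), 5′ to 3′ on the gene's strand, with capitals marking matches to the ABRE core ACGTG or the DRE core CCGAC on either strand. No annotated gene overlaps these windows. The windows are chr5:2090431-2090680 (minus strand) for LEA4-5, chr2:18958749-18958998 (plus strand) for LEA27 and chr1:20310851-20311100 (minus strand) for HIRD11.
LEA4-5: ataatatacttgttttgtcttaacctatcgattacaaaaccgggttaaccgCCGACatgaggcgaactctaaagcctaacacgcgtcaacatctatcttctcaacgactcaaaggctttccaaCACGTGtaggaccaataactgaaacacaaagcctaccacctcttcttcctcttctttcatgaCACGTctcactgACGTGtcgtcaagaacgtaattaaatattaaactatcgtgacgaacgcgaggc
LEA27: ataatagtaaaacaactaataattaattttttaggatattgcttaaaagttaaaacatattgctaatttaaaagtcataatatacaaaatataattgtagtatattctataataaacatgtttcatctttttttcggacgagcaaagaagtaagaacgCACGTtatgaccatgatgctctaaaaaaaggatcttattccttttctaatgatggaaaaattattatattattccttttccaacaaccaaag
HIRD11: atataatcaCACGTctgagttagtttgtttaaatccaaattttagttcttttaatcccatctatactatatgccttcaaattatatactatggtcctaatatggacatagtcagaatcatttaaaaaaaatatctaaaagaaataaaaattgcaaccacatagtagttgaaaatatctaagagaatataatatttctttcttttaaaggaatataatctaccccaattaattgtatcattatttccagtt
LEA4-5 held 4 ABRE core matches, 2 of them the strands of a single palindrome, and 1 DRE core match, while the other 2 windows held 1 ABRE core match each.

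ABRE cores were common upstream of the family. Their relation to the direction in erf4 was not tested, and only 4 members lay above the wild-type range. Of the 53 members, 37 (69.8%) had the ABRE core in this window, against 22.9% of 27443 protein-coding nuclear genes, and 29 (54.7%) had it at least 2 times, against 8.84%. The DRE core was found in 20 members (37.7%), against 12% of all genes, and the RY core CATGCA, the site of ABI3 and FUS3, in 9 (17.0%), against 8.43%. All motifs were searched on both strands, a palindrome counted on each, and matches of different motifs may share bases. Among the 14 members below the wild-type range, AT2G23110 and AT3G53040 had to lie lower because they passed the filter through the wild type alone. AT3G53040 held 7 ABRE, 1 RY and 2 DRE core matches, and AT2G23110 held 1 ABRE core match. Of the 14 members below the wild-type range, 12 had the ABRE core and 9 had it at least 2 times. Of the 4 above that range 3 had it, and 0 had it more than once. Of the 19 that overlapped, 13 had it, 11 of them at least 2 times, and of the 16 untested members 9 had it, each at least 2 times. RY cores stood in 3 of the 14 below, 1 of the 4 above and 2 of the 19 that overlapped, and DRE cores in 8 of the 14, 0 of the 4 and 8 of the 19. A match describes the letters of the window, not bound sites.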

How the data were processed

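The authors deposited gene expression as TPM for 33187 identifiers in 4 libraries, with columns summing to 1000000 or 1000001, together with their mean TPM per genotype, which was not used. Per the submitters' processing notes, the tools were RSEM, HISAT and fastp. Their versions and roles, the annotation and the genome build were not given in the sources used here. Library depth is unknown, so no interval that needs it is given. Locus names came from RefSeq TAIR10.1 by identifier (32548 identifiers, 98.1%, and all 53 members matched); upstream windows were read from that assembly with its own annotation, with no coordinates from the deposited file.

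Genes with at least 1 TPM in at least 2 libraries (20804) entered a two-sided limma test (limma 3.58.1, R 4.3.3) of log2(TPM + 1), with genotype as its single term and a trend in the variance. Benjamini-Hochberg adjustment ran over all genes, and genes under an adjusted p of 0.05 were called. That scale understates the fold changes of low genes. A permutation of 2 against 2 libraries cannot give an exact two-sided p below 0.333 and was not used. The members, classes, regulator and marker lists were chosen with earlier results of these data known. Every tested member is named, and the 6 regulators with the smallest p. Members in 7 adjacent pairs may share reads. Alternatives were the pseudocount (0.1 and 5), the filter (none, or a mean of at least 5 TPM), median-of-ratios and quantile scaling, the variance model, an adjusted p under 0.1, the replicate number as a term, and leaving out each library.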

Additional observations from a re-analysis of the deposited data

How the results depend on the processing

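The number of members called stayed at 0 under every alternative but one. When the replicate number entered the fit (replicate block), limma called 1083 of all genes (5.21%). It also called 16 of the 37 tested members and 5 of the regulators. Of the 16 members, 15 were lower and LTI30 was higher in erf4. AT2G23110, among the 15, had to lie lower because it passed the filter through the wild type alone. The labels do not tie same-numbered libraries together. With 2 numbers per genotype, the correlation of the replicate differences across genes is only a hint of pairing from the data. It was 0.351 over all genes and 0.682 over the members. The number of all genes called was 44 with no filter and ran from 0 to 204 when 1 library was left out. The members' median log2 fold change was -0.40 on the log2(TPM + 5) scale and -0.14 with no filter, which adds the 16 genes near 0, and ran from -0.68 to -0.44 when 1 library was left out. Members above the wild-type range, 4 as reported, were 2 after median-of-ratios rescaling and 1 after quantile normalisation, and 4 to 11 when 1 library was left out; those below ran from 15 to 23. Over all genes the shares below and above the range were 18.4% and 18.2% after median-of-ratios rescaling and 17.8% and 19.3% after quantile normalisation, with 16 and 15 members below. Leaving out 1 library turned the direction of 11 members, none of them called. Their log2 fold changes ran from -0.41 to 0.68 for LEA14 (AT1G01470), -0.53 to 0.28 for AT2G03850, -0.073 to 0.41 for AT2G18340, -0.0094 to 0.55 for COR15B (AT2G42530), -0.23 to 0.45 for COR15A (AT2G42540), -3.67 to 0.25 for AT3G02480, -0.30 to 0.29 for ERD10 (AT1G20450), -0.16 to 2.34 for LTI30 (AT3G50970), -0.18 to 0.055 for XERO1 (AT3G50980), -0.55 to 0.71 for AT2G23120 and -0.64 to 0.18 for M17 (AT2G41260). The cause of these shifts was not tested. With a genotype reduced to 1 library, that library is assumed to vary like the other genotype. Members under 1 TPM are limited by their level.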
